A study of Mus musculus with 6 samples.

Results

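The 138 genes described here encode the subunits of the potassium, sodium and calcium channels of the aortic valve, together with the 4 hyperpolarization-activated channels. They were chosen by name alone, as every protein-coding gene of the table whose symbol begins with Kcn, Scn and a digit, or Cacn, or Hcn and 1 of the digits 1 to 4. They made up 138 of the 21930 protein-coding genes and of the 46983 genes in the table. Their transcripts were measured by RNA-seq in aortic valves of C57BL/6J mice, wild type in genotype and aged either 2 days (postnatal day 2, PND2) or 4 months, and each age had 3 biological replicates. Each library was made from a pool of 5 to 6 animals, so the spread within an age is one between pools and not between single mice. The question the design poses is how the transcripts of the valve differ between the remodeling valve after birth and the mature valve.

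Ion channels set the membrane potential of a cell and its calcium entry. Opening of potassium channels holds the membrane negative, opening of voltage-gated sodium and calcium channels depolarizes it, and calcium that enters through voltage-gated channels triggers contraction of muscle and release from nerve endings. A channel is usually a pore-forming subunit, which selects the ion, assembled with auxiliary subunits that change its gating or its transport to the membrane. In the heart these genes are known mainly from cardiac muscle and the conduction system, and in arteries from smooth muscle. The valve is a connective tissue of interstitial and endothelial cells that borders on both.

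Library totals ran from 23810507 to 38994657, and in a library of this depth 1 read corresponds to 0.0256 to 0.0420 RPKM (reads per kilobase of exon, scaled to the library total) for each kilobase of exon. The read counts behind the RPKM values could be worked out and are given for genes of low level. The 8 endothelial markers summed to 491 to 693 RPKM at PND2 and 265 to 292 RPKM at 4 months, and all 8 were lower at 4 months by limma. Of 7 tested adipocyte markers 6 were higher and none lower. Valve interstitial markers summed to 4756 to 5258 RPKM at PND2 and 3452 to 4311 RPKM at 4 months, with 5 of 8 lower and none higher. Muscle transcripts were also abundant: the 14 cardiomyocyte markers summed to 20237, 21131 and 23190 RPKM at PND2 and to 8030, 12944 and 8557 RPKM at 4 months, with 7 of them lower and none higher by limma at 4 months. The second 4 months library held the most cardiomyocyte RNA of its age, and each result on a gene of the heart muscle is therefore also given without it where that matters. The 12 smooth muscle and pericyte markers summed to 7690, 8960 and 8983 RPKM at PND2 and to 28204, 17131 and 20476 RPKM at 4 months, with 8 higher and 2 lower. In RNA from a whole valve, fewer cells of a type and less RNA per cell cannot be told apart.

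Of the 138 genes, 110 reached 0.1 RPKM in no fewer than 3 libraries and were tested with limma on log2(RPKM + 0.1) within a fit of all 25903 genes that passed this filter. By limma, 33 of the 110 were higher at 4 months, or 30.0%, where 14.7% of all tested genes and 18.6% of the tested protein-coding genes were higher. Another 17 were lower, or 15.5%, against 21.1% of all tested genes and 23.6% of the protein-coding ones. With a fold change over 2 added to the adjusted p under 0.05, 28 were higher (25.5%, against 8.72% of all tested genes) and 15 were lower (13.6%, against 8.47%). The median log2 fold change was 0.00 over the 110 channel genes and -0.14 over all tested genes. By adjusted p alone, called channel genes were thus more often higher than lower at 4 months and called genes of the whole table more often lower, and with the fold added both directions were near equal in the whole table. Median scaling moved the median of all tested genes from -0.14 to -0.02, and under it 36 channel genes were higher and 16 lower. A test of each gene on its own with unequal variances, as the study used, called 15 higher and 4 lower after adjustment. By that test neither Kcne1 (adjusted p = 0.116) nor Kcnc4 (0.0555), the largest fall and the largest rise below, was called.

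Potassium channel genes and sodium channel genes held most of the rises, but they also made up most of the 110 tested genes. Of 74 tested potassium channel genes 24 were higher and 12 lower. The share higher was 32.4%, near the 30.0% of all 110. Of 12 tested sodium channel genes 5 were higher (41.7%) and 1 lower. Of 20 tested calcium channel genes 2 were higher, a smaller share, and 3 lower. Whether these shares differ between the groups was not tested. Summed over each group, the sodium channel genes stood at 34.4 to 37.9 RPKM at PND2 and 83.9 to 87.1 RPKM at 4 months, the potassium channel genes at 304 to 383 and 409 to 470.2 RPKM, and the calcium channel genes at 142 to 197 and 121 to 137 RPKM, with no overlap between the ages in each of these sums. These sums were not tested, and a few abundant genes weigh most in them.

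**Figure D1:**
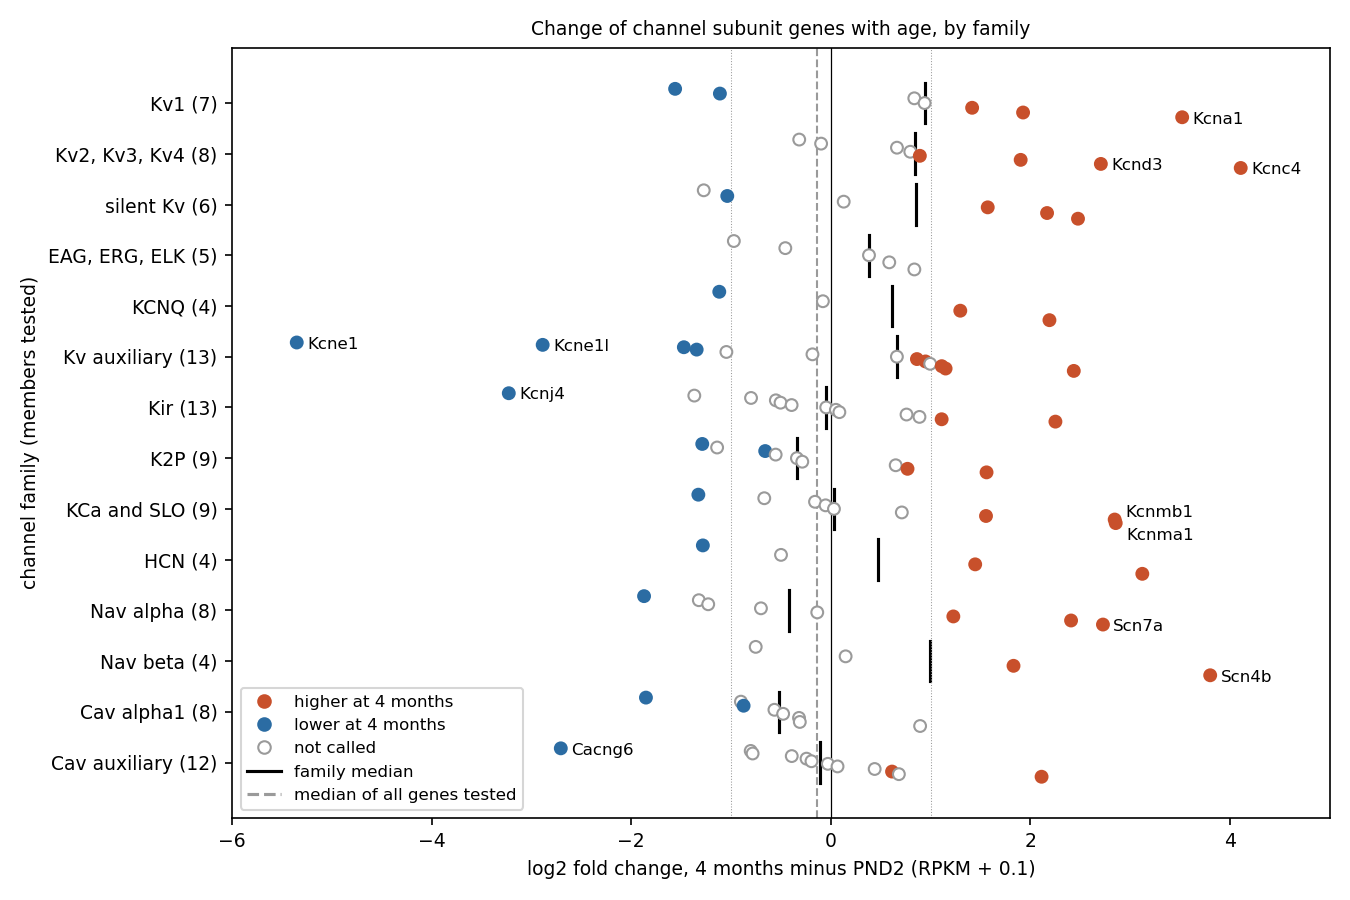
Change of the 110 tested channel genes with age. Each point is a gene placed by its log2 fold change (4 months minus PND2, from RPKM + 0.1), in rows by family with the number tested. Filled points passed an adjusted p of 0.05, red for the 33 higher and blue for the 17 lower at 4 months, and open points did not. The black bars are family medians, the dashed line is the median of all tested genes, and the dotted lines mark a fold of 2. Rises and falls occur side by side in most families, and the EAG family has no called gene.

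At PND2 the transcript with the highest RPKM of the 138 was Kcne1, with a mean of 69.4 ± 7.18 (SD, n = 3), followed by Cacna1g at 42.3 ± 11.1 and Kcnj15 at 31.8 ± 12.4. At 4 months the highest was Kcnmb1 at 78.4 ± 11.9, and Kcnh2 reached 42.4 ± 9.48. Kcne1 and Cacna1g had left the 15 highest by then, and Kcnmb1 and Kcnab1, a cytoplasmic beta subunit of Kv1 channels, had entered them. A mean of at least 10 RPKM was reached by 18 of the genes at PND2 and by 17 at 4 months. In total 59 genes had a mean of at least 1 RPKM at PND2, 64 at 4 months, and 75 at one of the ages or both.

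The largest fall was that of Kcne1 (chr16:92346001-92359468, minus strand, mm10), the small single-pass subunit that assembles with Kcnq1 into the slow delayed rectifier of the heart. Its RPKM was 61.4, 71.7 and 75.2 at PND2 and 0.469, 7.02 and 1.10 at 4 months. Every 4 months library lay far under every PND2 library, but those 3 libraries differed widely among themselves, and the highest was the second library, which also held the most cardiomyocyte RNA. The log2 fold change was -5.35 ± 0.81 (SE; limma, adjusted p = 0.00259). It was -6.39 without that library and -4.57 without the first 4 months library.

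Kcnq1 (chr7:143106362-143427042), the pore that Kcne1 joins, fell as well, but by much less. It was at 8.93, 8.95 and 12.9 RPKM at PND2 and 4.25, 6.47 and 3.54 RPKM at 4 months, with no overlap between the ages (-1.12 ± 0.26 on the log2 scale, adjusted p = 0.0139). The ratio of Kcnq1 to Kcne1 within a library was 0.145, 0.125 and 0.172 at PND2 and 9.06, 0.922 and 3.21 at 4 months. The pore transcript was thus the scarcer of the pair in every PND2 library and the more abundant in the first and the third 4 months library.

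Other members of the Kcne group went both ways. Kcne1l (chrX:142304752-142306294), an X-linked relative of Kcne1 that also binds Kcnq1, had the third largest fall, from 4.90, 5.95 and 8.02 RPKM to 0.868, 0.735 and 0.649 RPKM (-2.89 ± 0.25, adjusted p = 0.000269), and the 3 libraries of 4 months lay close together. Kcne3 fell from 1.07 ± 0.324 to 0.316 ± 0.0789 RPKM (-1.47 ± 0.34, adjusted p = 0.0135; without the third PND2 library the adjusted p was 0.0532). Kcne4, a subunit known to inhibit Kcnq1, rose from 13.1, 14.8 and 18.3 RPKM at PND2 to 39.5, 29.4 and 33.8 RPKM at 4 months (1.15 ± 0.16, adjusted p = 0.00194). At 4 months Kcne4 was the most abundant Kcne transcript in each library, the place that Kcne1 held in each library at PND2.

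Of the other pores of the Kcnq family, Kcnq5 rose from 0.819 ± 0.303 to 2.08 ± 0.213 RPKM (1.30 ± 0.30, adjusted p = 0.0149; without the second 4 months library the adjusted p was 0.0510). Kcnq3, a neuronal subunit, was not called.

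The largest rise was that of Kcnc4 (chr3:107438303-107459552, minus strand), which encodes a fast inactivating Kv3 channel. It was at 0.210, 0.0536 and 0.419 RPKM at PND2, from 30, 6 and 45 reads, and at 6.35, 4.05 and 4.63 RPKM at 4 months, from 870, 354 and 491 reads. The 4 months libraries all lay well above the PND2 libraries, and the mean was 22.0 times higher (4.11 ± 0.46, adjusted p = 0.000755). Kcnd3, a Kv4 pore of the transient outward current of the heart, rose too and went from 1.25, 0.410 and 0.599 to 5.82, 4.99 and 4.35 RPKM (2.71 ± 0.37, adjusted p = 0.00179). Kcnd2, the other main Kv4 pore of the mouse heart, went from 0.296 ± 0.198 to 1.29 ± 0.468 RPKM (1.90 ± 0.50, adjusted p = 0.0230), a call lost without the second 4 months library (adjusted p = 0.0637) or without the third (0.0815).

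Kcnip2, the calcium-binding subunit that brings Kv4 pores to the membrane of heart muscle cells, was not called. It was at 4.46, 6.73 and 8.22 RPKM at PND2 and at 1.94, 9.10 and 9.30 RPKM at 4 months, where the first library stood apart from the other two (-0.18 ± 0.59, 95% interval -1.56 to 1.19). Without that library the log2 fold change was 0.55 (adjusted p = 0.172). The 4 genes called in the Kv2, Kv3 and Kv4 group, out of 8 tested, all rose. Of all tested genes 14.7% were higher and 21.1% lower. The group summed to 11.6, 6.999 and 8.95 RPKM at PND2 and 23.1, 21.8 and 20.3 RPKM at 4 months.

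The Kv1 genes, whose pores carry delayed rectifier currents in nerve and muscle, changed places. Kcna1 (chr6:126640397-126646384, minus strand), a channel of myelinated axons, had the third largest rise, from 0.145, 0 and 0.0643 RPKM (27, 0 and 9 reads) to 1.45, 2.11 and 1.68 RPKM (258, 240 and 233 reads), with 3.52 ± 0.41 on the log2 scale (adjusted p = 0.000853). Kcna2, which pairs with Kcna1 in axons, rose from 0.922, 0.498 and 0.933 to 4.81, 2.74 and 2.39 RPKM (1.93 ± 0.36, adjusted p = 0.00585). Kcna5, the pore of the ultrarapid current of heart and arteries, fell from 6.42, 7.76 and 7.49 to 2.45, 4.67 and 3.07 RPKM (-1.11 ± 0.25, adjusted p = 0.0119). Kcna4, a pore of the slow transient outward current, fell from 1.49, 1.71 and 1.61 to 0.565, 0.721 and 0.250 RPKM (-1.56 ± 0.36, adjusted p = 0.0147).

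Because these changes ran in opposite directions, the sum of the 8 Kv1 genes was 10.8, 13.3 and 12.2 RPKM at PND2 and 13.1, 14.8 and 13.4 RPKM at 4 months, and the ages overlapped. The share of Kcna5 in that sum was 59.8% ± 1.56 at PND2 and 24.4% ± 6.48 at 4 months, while Kcna1 and Kcna2 went from 0.624% ± 0.677 and 6.66% ± 2.55 to 12.6% ± 1.58 and 24.3% ± 10.8. Kcna6, which was not called, held 16.5% ± 5.30 at PND2 and 26.4% ± 8.54 at 4 months, the largest mean share at that age. Another gene model overlaps 39.6% of the exonic length of Kcna6, so its value is uncertain. Among 8 tested neuron markers none was called in either direction, at a summed 11.1 to 17.3 RPKM at PND2 and 8.92 to 16.5 RPKM at 4 months. The 8 Schwann cell markers, of the cells that form myelin, summed to 154 to 183 and 236 to 278 RPKM, with 4 higher and none lower at 4 months. The part of either cell type in the Kcna1 and Kcna2 values was not tested.

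Kcnab1 (chr3:65109384-65378223), the beta subunit that speeds inactivation of Kv1 pores, went from 4.56, 5.64 and 5.52 RPKM at PND2 to 36.8, 26.0 and 24.5 RPKM at 4 months, 5.56 times its PND2 mean (2.43 ± 0.18, adjusted p = 0.000156). Its relative Kcnab3 fell from 1.21 ± 0.312 to 0.411 ± 0.103 RPKM (-1.34 ± 0.32, adjusted p = 0.0169), which was lost without the second PND2 library (adjusted p = 0.0587) or the second 4 months library (0.0512). Of the 13 auxiliary genes of voltage-gated potassium channels 5 were higher (38.5%) and 4 lower (30.8%), where 14.7% of all tested genes were higher and 21.1% lower.

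The silent Kv genes encode subunits that form no channel alone and modify Kv2 pores. Kcng2 (chr18:80294546-80364254) was the most abundant of them at both ages and fell from 15.4, 23.2 and 20.6 to 7.41, 12.4 and 9.11 RPKM (-1.04 ± 0.22, adjusted p = 0.0110). Kcns3 rose from 0.562, 1.16 and 0.436 to 3.71, 3.32 and 2.99 RPKM (2.17 ± 0.35, adjusted p = 0.00324). Of 6 tested genes in this group 3 were higher and 1 lower, where 14.7% of all tested genes were higher and 21.1% lower.

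In the EAG family none of 5 tested genes was called by limma, where 35.8% of all tested genes were. Kcnh2, the pore of the rapid delayed rectifier, carried 96.5% ± 1.16 of the family's RPKM at PND2 and 98.0% ± 0.593 at 4 months. Kcnh2 was at 21.3, 32.1 and 31.4 RPKM at PND2 and 53.4, 37.2 and 36.7 RPKM at 4 months. All 4 months libraries lay above all PND2 libraries, but the log2 fold change of 0.59 ± 0.21 did not pass the threshold (adjusted p = 0.0643). It passed with median scaling (0.71, adjusted p = 0.0217), with quantile normalization, with voom and among protein-coding genes alone.

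**Figure D2:**
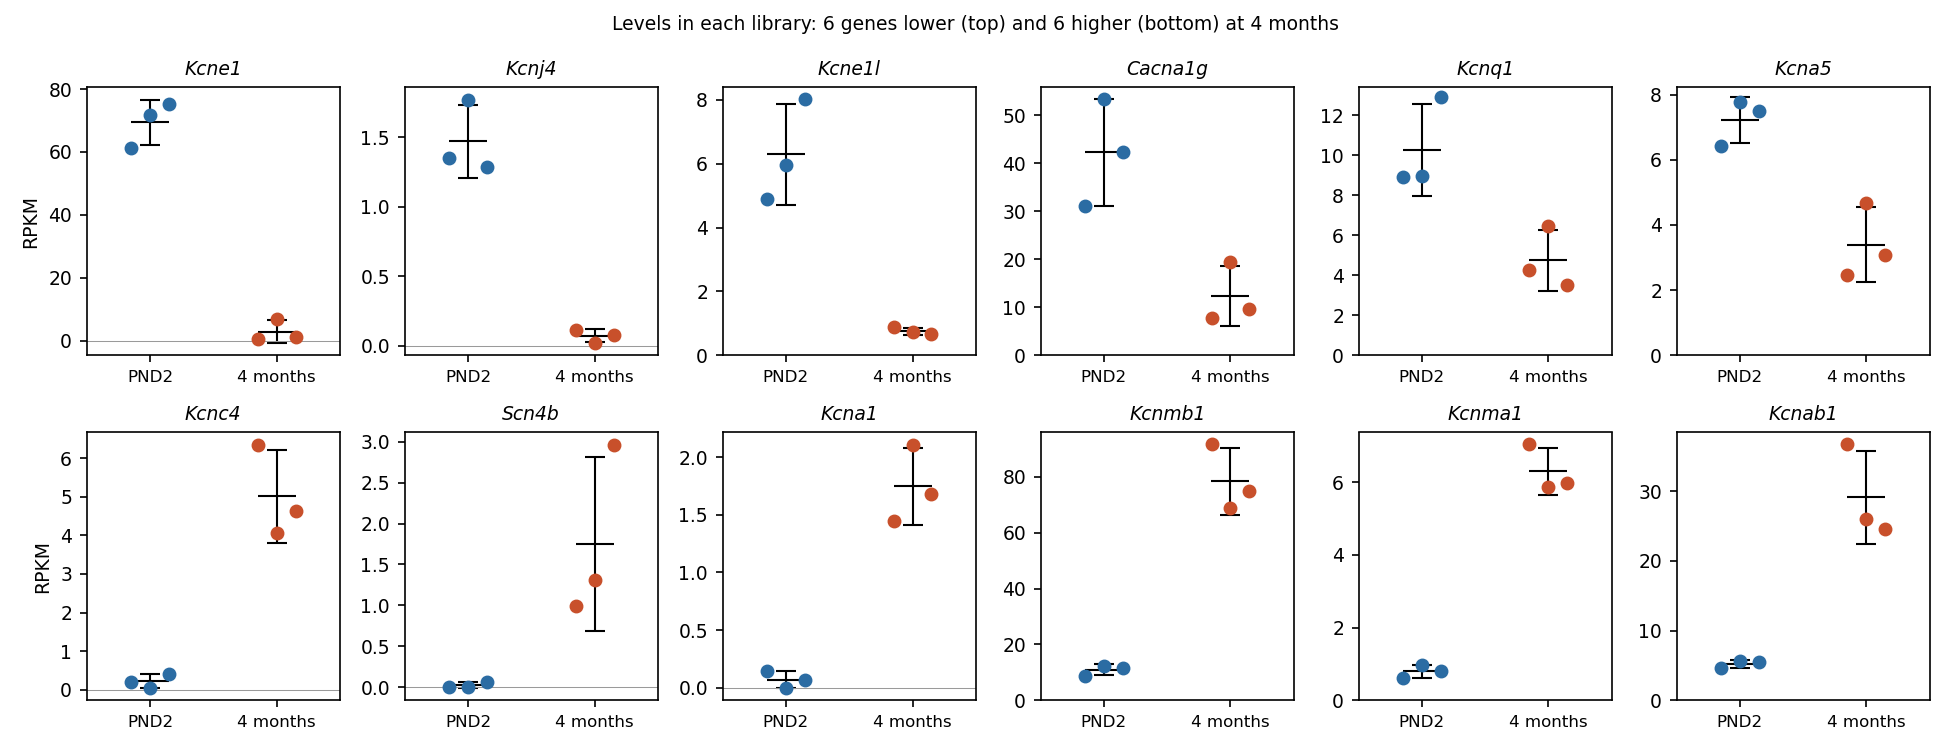
RPKM of 12 genes in each library. Each point is a library of pooled valves, blue for PND2 and red for 4 months, and the bars are the mean and SD of 3 libraries. Each panel has its own linear scale from 0. The 6 genes of the upper row are lower and the 6 of the lower row higher in every 4 months library, and in Kcne1 and Cacna1g the second 4 months library is the highest of its age.

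The pore gene of the large-conductance, calcium-activated potassium channel and that of its smooth muscle beta subunit both rose. Kcnma1 (chr14:23289431-24004859, minus strand) encodes its pore, which opens on depolarization and calcium and relaxes arterial smooth muscle. It was at 0.614, 0.966 and 0.803 RPKM at PND2 and 7.05, 5.87 and 5.99 RPKM at 4 months (2.86 ± 0.23, adjusted p = 0.000201). Kcnmb1 (chr11:33963013-33973641), the smooth muscle beta subunit that raises the calcium sensitivity of this pore, was at 8.65, 12.3 and 11.7 RPKM at PND2 and 91.7, 68.7 and 74.8 RPKM at 4 months (2.84 ± 0.17, adjusted p = 6.28e-05). The folds of the means were 7.94 and 7.21.

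The ratio of pore to beta subunit hardly moved. Kcnma1 over Kcnmb1 was 0.0710, 0.0785 and 0.0688 in the PND2 libraries and 0.0769, 0.0855 and 0.0802 in those of 4 months, a change of 0.01 in the log2 ratio (2-sided exact permutation test, p = 0.8). Its size depends on the 0.1 RPKM added, since Kcnma1 was low at PND2: with 1 RPKM added the change was -0.72, with 0.01 it was 0.14.

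Kcnmb4, the beta subunit known from the brain, went the other way, from 4.50, 7.85 and 4.26 to 1.44, 2.34 and 2.58 RPKM (-1.33 ± 0.32, adjusted p = 0.0159). Antisense genes overlap 31.5% of its exonic length, and the sources do not say if reads were counted by strand, so its value is uncertain. Kcnt2, a sodium-activated potassium channel, rose from 3.32, 1.83 and 2.57 to 6.83, 8.17 and 7.71 RPKM (1.55 ± 0.23, adjusted p = 0.00246). None of the 4 small- and intermediate-conductance genes Kcnn1 to Kcnn4 was called, with log2 fold changes from -0.67 for Kcnn2 to 0.71 for Kcnn1. Of the 9 tested genes of this family 3 were higher (33.3%) and 1 lower (11.1%), where 14.7% of all tested genes were higher and 21.1% lower. Kcnmb1 alone made up 38.5% ± 4.57 of the family's summed RPKM at PND2 and 76.3% ± 2.83 at 4 months.

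Inward rectifiers hold the resting potential or couple it to ATP and to G proteins. Of 13 tested, 2 were higher and 1 lower, so that 23.1% were called against 35.8% of all tested genes, and the share higher (15.4%) was near that of all tested genes. Kcnj8 (chr6:142564837-142571614), the pore of the ATP-sensitive channel of smooth muscle, rose from 7.60, 10.3 and 11.0 to 21.9, 18.8 and 21.5 RPKM (1.11 ± 0.16, adjusted p = 0.00219). Kcnj11, the pore of that channel in heart muscle and the pancreas, stood at 10.2, 13.2 and 14.0 and 11.1, 16.9 and 12.0 RPKM and was not called (0.09 ± 0.20, 95% interval -0.37 to 0.54).

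Abcc9, the sulfonylurea receptor that surrounds both pores, rose from 21.7, 31.0 and 29.7 to 65.0, 69.9 and 62.0 RPKM (1.27 ± 0.15, adjusted p = 0.000891). The ratio of Kcnj8 to Abcc9 was 0.351, 0.332 and 0.370 at PND2 and 0.336, 0.268 and 0.347 at 4 months and overlapped between the ages. The ratio of Kcnj11 to Abcc9 was 0.470, 0.424 and 0.470 at PND2 and 0.171, 0.241 and 0.193 at 4 months, lower in all of the older libraries.

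Kcnj4 (chr15:79483718-79505241, minus strand), a strong inward rectifier, had the second largest fall, from 1.35, 1.77 and 1.29 RPKM (113, 116 and 81 reads) to 0.112, 0.0196 and 0.0804 RPKM (9, 1 and 5 reads), or -3.23 ± 0.35 on the log2 scale (adjusted p = 0.000649). Kcnj2, the main strong rectifier of ventricular muscle, was at 4.04, 3.46 and 4.46 and 2.58, 3.02 and 2.45 RPKM, a difference just outside the threshold (-0.55 ± 0.19, adjusted p = 0.0548). It passed under 6 alternatives, with an adjusted p from 0.0209 with voom to 0.0497 with 0.01 RPKM added. Kcnj3 and Kcnj5 encode the partner pores of the atrial channel that acetylcholine opens, and their values went in opposite directions. Their means were 1.90 and 25.8 RPKM at PND2 and lay closer together at 4 months, at 9.48 and 15.1 RPKM. Kcnj3 rose from 2.56, 2.16 and 0.983 to 12.8, 10.8 and 4.92 RPKM (2.25 ± 0.45, adjusted p = 0.00811). Another gene model covers 31.1% of the exonic length of Kcnj3, so part of its value may belong there. Kcnj5 was at 26.8, 31.2 and 19.4 RPKM at PND2 and 16.9, 18.7 and 9.62 RPKM at 4 months (-0.80 ± 0.28, adjusted p = 0.0607).

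Kcnj15, a rectifier known from kidney and other epithelia, had the highest mean of the family at PND2 and at 4 months and did not differ beyond its spread, at 23.0, 46.0 and 26.5 RPKM and 31.1, 27.1 and 37.1 RPKM (0.05 ± 0.26, 95% interval -0.56 to 0.66). Tandem-pore potassium channels carry the background current. Kcnk3, an acid-sensitive one known from pulmonary artery, was at 9.11, 14.6 and 11.0 RPKM at PND2 and 15.9, 25.8 and 17.8 RPKM at 4 months (0.77 ± 0.23, adjusted p = 0.0379). That call was lost when any 1 of 4 libraries was left out, with adjusted p from 0.0761 without the third 4 months library to 0.100 without the third PND2 library. Kcnk6 fell from 9.11 ± 0.604 to 5.73 ± 0.130 RPKM (-0.66 ± 0.12, adjusted p = 0.00627), and Kcnk1 from 1.97 ± 0.290 to 0.743 ± 0.0523 RPKM (-1.29 ± 0.24, adjusted p = 0.00560). Of 9 tested genes of this family 2 were higher and 2 lower (22.2% each, where 14.7% of all tested genes were higher and 21.1% lower).

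The 4 HCN genes encode the channels of the pacemaker current. Hcn4 (chr9:58823512-58860955), the main subunit of the sinus node and of the embryonic heart, was at 4.62, 10.7 and 5.34 RPKM at PND2 and 2.21, 4.18 and 1.84 RPKM at 4 months (-1.28 ± 0.40, adjusted p = 0.0422). The second PND2 library stood well above the other two, and the call was marginal, with an adjusted p of 0.107 without it, 0.0731 without the third PND2 library, and 0.107 and 0.130 without the first and the third 4 months library. Hcn2 rose from 0.634, 0.564 and 1.10 to 1.82, 2.41 and 2.37 RPKM (1.45 ± 0.30, adjusted p = 0.00979). The share of Hcn4 in the sum of the 4 genes was 83.1% ± 6.66 at PND2 and 40.1% ± 8.36 at 4 months.

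**Figure D3:**
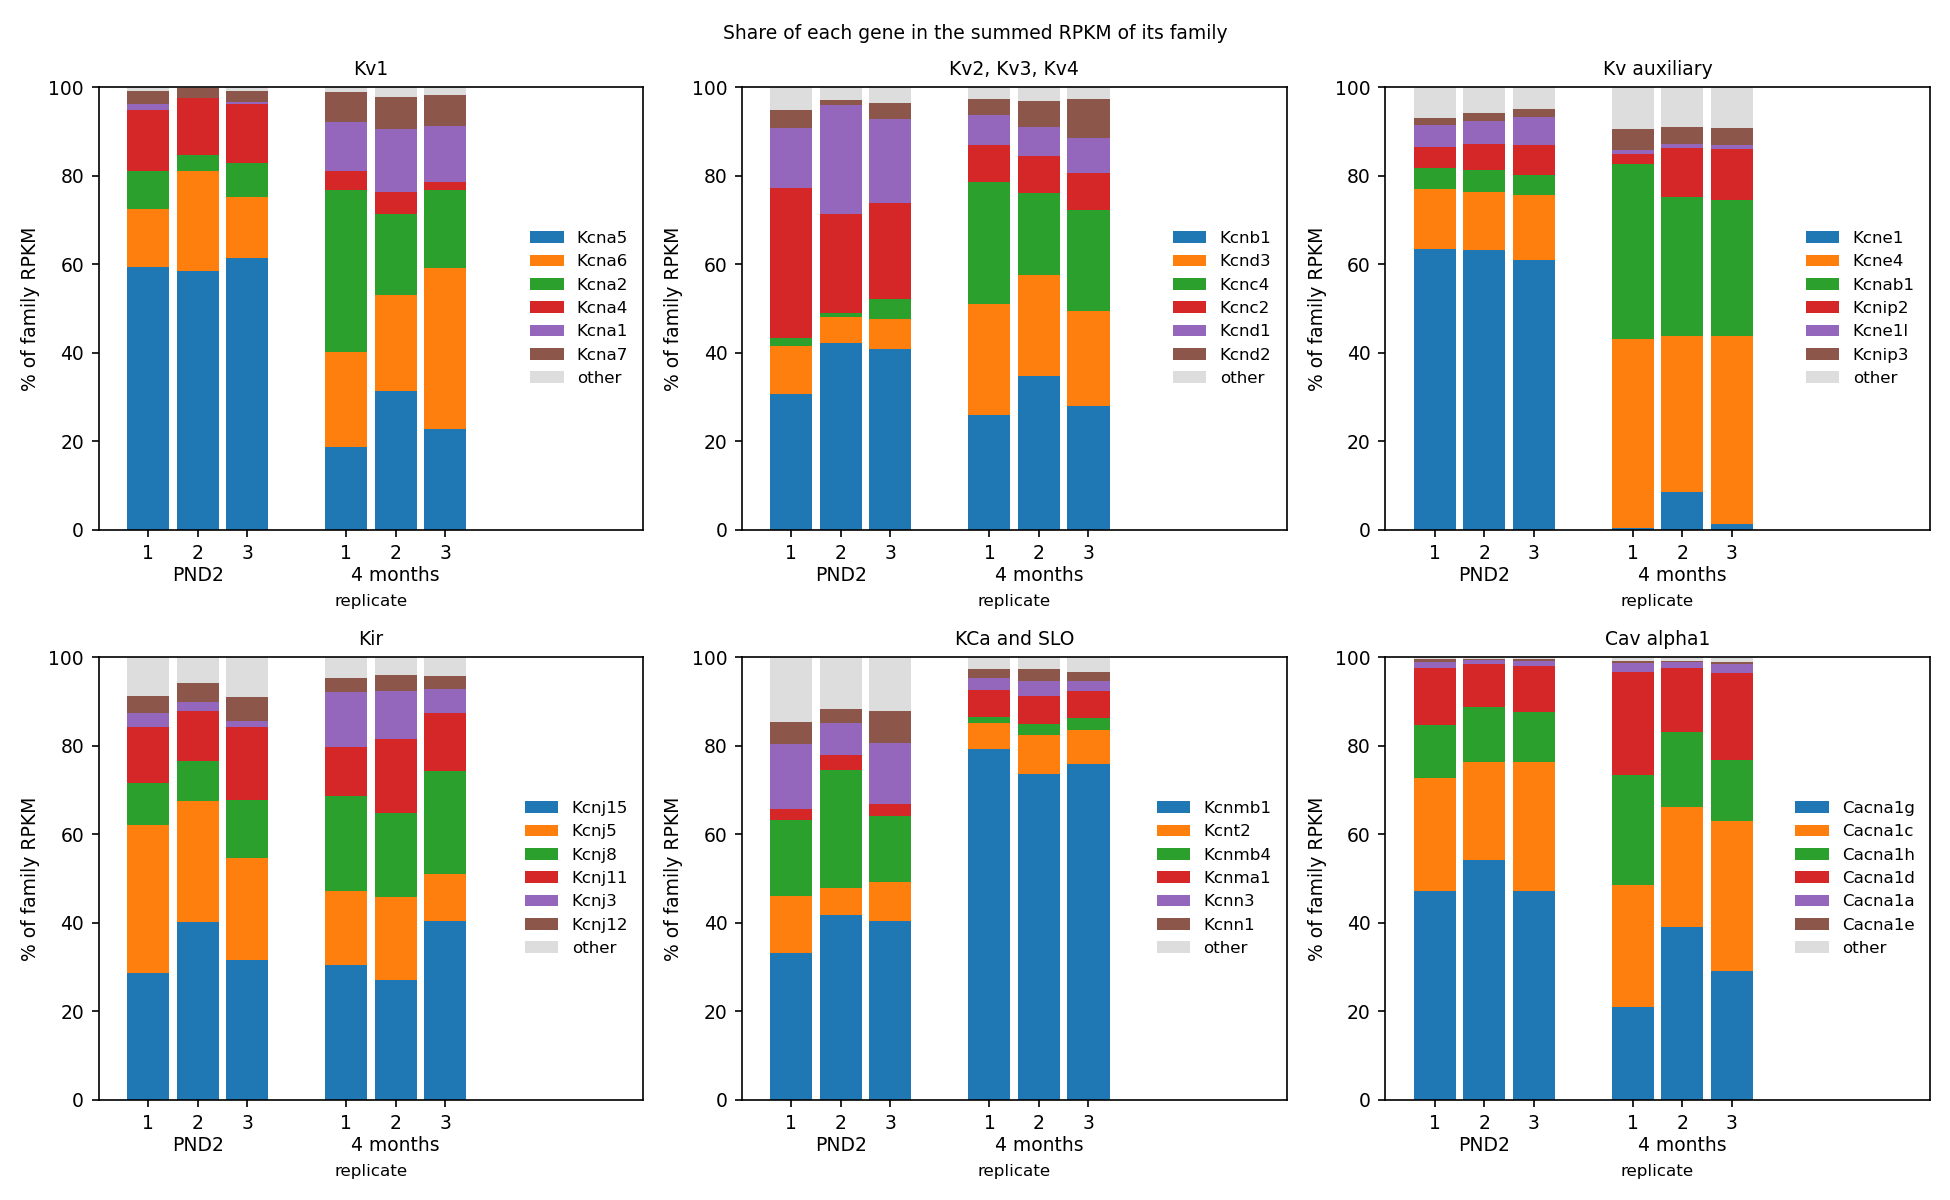
Make-up of 6 families in each library. Each bar is a library and each colour the percent of the family's summed RPKM that 1 gene held, with PND2 on the left and 4 months on the right of each panel. Among the Kv1 genes the share of Kcna5 is smaller at 4 months, and the mean shares of Kcna1, Kcna2 and Kcna6 are larger. Kcnmb1 takes most of the calcium-activated family at 4 months, and Kcnj15 holds the lowest segment of the Kir bars at both ages.

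Among the sodium channel pores, Scn7a (chr2:66673425-66784914, minus strand) encodes an atypical channel that senses extracellular sodium and is known from glia and non-excitable cells. It was at 4.70, 2.06 and 2.79 RPKM at PND2 and at 22.7, 21.4 and 17.6 RPKM at 4 months (2.73 ± 0.29, adjusted p = 0.000574). It held 17.9% ± 9.53 of the summed RPKM of the 10 pore genes at PND2 and 69.6% ± 9.55 at 4 months.

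Another 3 pores changed at low levels. Scn4a, the skeletal muscle channel, rose from 0.112 ± 0.0671 to 1.05 ± 0.442 RPKM (2.41 ± 0.41, adjusted p = 0.00428). Scn2a1, a channel of central neurons, rose from 0.761 ± 0.117 to 1.92 ± 0.329 RPKM (1.23 ± 0.26, adjusted p = 0.00944). Scn3a, known from embryonic neurons, fell from 2.37, 0.694 and 1.59 to 0.322, 0.374 and 0.238 RPKM (-1.87 ± 0.45, adjusted p = 0.0164), a call lost without the third PND2 library (adjusted p = 0.0569) or the third 4 months library (0.0570). The 8 skeletal muscle markers had 5 lower and none higher at 4 months, summing to 936 to 1398 RPKM at PND2 and 265 to 576 RPKM at 4 months.

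Beta subunits set sodium channel gating and act in cell adhesion. Scn4b (chr9:45138437-45154152), the beta subunit of the adult heart and of fast-firing neurons, had the second largest rise, with 0, 1 and 9 reads at PND2 and 182, 154 and 424 reads at 4 months, which correspond to 0.986, 1.31 and 2.97 RPKM (3.80 ± 0.47, adjusted p = 0.00114). At PND2 its level was at the edge of what this depth can show.

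Of the 8 tested calcium channel pores, which admit the calcium that drives contraction, 2 fell by limma and none rose. The share that fell was near that of all tested genes, of which 21.1% were lower and 14.7% higher. Cacna1g (chr11:94408391-94474198, minus strand), the low-threshold T-type pore of pacemaker tissue and of the fetal heart, was at 31.2, 53.4 and 42.3 RPKM at PND2 and at 7.76, 19.4 and 9.69 RPKM at 4 months. The ages did not overlap, and the second 4 months library was the highest of its age here as well (-1.85 ± 0.35, adjusted p = 0.00612). Cacna1h, the other T-type pore of heart and vessels, was at 7.99, 12.1 and 10.004 and 9.16, 8.38 and 4.60 RPKM and was not called (-0.48 ± 0.28, 95% interval -1.14 to 0.19). The ratio of Cacna1g to Cacna1h went from 3.90, 4.40 and 4.23 to 0.847, 2.32 and 2.11.

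Cacna1c (chr6:118587240-119196418, minus strand), the L-type pore of cardiac and smooth muscle, fell from 16.9, 22.0 and 26.1 to 10.1, 13.6 and 11.3 RPKM (-0.87 ± 0.19, adjusted p = 0.0103). Cacna1d, the L-type pore of sinus node and endocrine cells, was at 8.51, 9.74 and 9.30 and 8.54, 7.18 and 6.53 RPKM and was not called. T-type genes made up 61.4% ± 4.39 of the summed RPKM of the 10 pores at PND2 and 48.3% ± 6.71 at 4 months, and L-type genes 36.8% ± 3.96 and 49.3% ± 6.29. The P/Q, N and R-type genes of nerve endings made up 1.78% ± 0.494 and 2.47% ± 0.512.

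Calcium channel pores have pairs of neighbouring exons of which a transcript uses 1. Cacna1c carries such a pair of equal length that no annotated transcript of GENCODE M21 joins, shown here since cardiac and smooth muscle are known to favour different ones. Both have 104 bases on the minus strand of mm10, and the capitals mark the 32 bases that differ.
Cacna1c upstream exon (chr6:118742265-118742368): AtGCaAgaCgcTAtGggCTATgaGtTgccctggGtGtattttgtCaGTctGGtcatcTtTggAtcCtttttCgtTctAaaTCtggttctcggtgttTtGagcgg
Cacna1c downstream exon (chr6:118741871-118741974): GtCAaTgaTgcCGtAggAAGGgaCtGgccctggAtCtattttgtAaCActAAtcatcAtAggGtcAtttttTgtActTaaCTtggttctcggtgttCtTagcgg
The upstream exon had 10, 12 and 31 reads at PND2 and 2, 8 and 5 reads at 4 months, and the downstream exon 2, 3 and 0 reads at PND2 and 7, 2 and 0 reads at 4 months. The first 4 months library had more reads on the downstream exon, the other five had more on the upstream exon, and the shares did not differ between the ages beyond their spread (exact permutation test, p = 0.7). In Cacna1g a pair of 135 and 136 bases had more reads, and the downstream exon held 90.8% ± 2.50 at PND2 and 89.1% ± 3.70 at 4 months (exact permutation test, p = 0.6). Each exon of that pair lies in only 1 annotated transcript and their lengths differ. It is therefore not shown to be a pair of which a transcript uses 1. In all, 15 pairs of neighbouring exons of near equal length in 7 genes were compared, 6 of them joined by no annotated transcript, and of these 4 had reads in every library, none of which separated the ages. In the Scn3a pair, with 7 reads at most in a library and none in the first 4 months library, the downstream shares were 57.1%, 0% and 42.9% at PND2 and 100% and 75.0% at 4 months, which do not overlap and were not tested. Of the 13 pairs with reads in every library 2 separated the ages (exact permutation p = 0.1, and this design can give none smaller). That p is also the share of pairs expected to separate if the ages did not differ. Both pairs, 1 in Cacna1c and 1 in Cacna1h, are joined by annotated transcripts, but not to the same extent. The Cacna1c exons, of 84 bases each, lie in 14 and 12 annotated transcripts and together in 3. In the Cacna1h pair each exon lies in 3 transcripts and all 3 hold both. The downstream share of this Cacna1c pair was 57.0% ± 14.2 at PND2 and 77.7% ± 7.96 at 4 months. Its highest downstream share at PND2 was 68.60% and its lowest at 4 months 68.63%.

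Of 12 tested auxiliary calcium channel genes 2 were higher and 1 lower, or 25% called against 35.8% of all tested genes. Cacna2d1, the subunit that carries most L-type pores to the membrane in muscle, rose from 15.2, 14.1 and 12.4 to 20.0, 24.6 and 19.5 RPKM (0.61 ± 0.13, adjusted p = 0.0110). Cacna2d3, a neuronal relative, was at 0.472, 0.0975 and 0.499 RPKM at PND2 and 2.96, 1.58 and 0.963 RPKM at 4 months (2.11 ± 0.56, adjusted p = 0.0245). Its call was lost without the second PND2 library (adjusted p = 0.0513) and without the first or the second 4 months library (0.0718 and 0.0607).

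Cacng6, a gamma subunit of skeletal and heart muscle, fell from 1.91, 1.09 and 3.79 to 0.0271, 0.425 and 0.402 RPKM (-2.71 ± 0.66, adjusted p = 0.0180). The PND2 libraries differed by over a factor of 3 among themselves; without the third the adjusted p was 0.0611, and without the first 4 months library the log2 fold change was -2.04. Cacng7, the most abundant gamma gene, lies near it on the chromosome with Cacng8 between them. Cacng7 was at 15.8, 22.6 and 21.8 and 30.3, 21.6 and 29.7 RPKM and was not called (0.44 ± 0.19, adjusted p = 0.110). It passed with median scaling (adjusted p = 0.0391) and without the second 4 months library (0.0477).

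The beta subunits, which bind the pore inside the cell, were not called. Cacnb3 was at 20.3 ± 1.68 RPKM at PND2 and 17.9 ± 3.16 RPKM at 4 months, Cacnb1 at 8.29 ± 2.06 and 6.20 ± 0.687, and Cacnb2, the main cardiac form, at 5.69 ± 0.591 and 5.57 ± 0.507. The 95% interval of the log2 fold change of Cacnb2 was -0.39 to 0.33, and that of Cacnb3 -0.55 to 0.16. Cacna2d2 varied widely within an age, at 8.37, 19.2 and 2.40 RPKM at PND2 and 8.40, 11.3 and 4.74 RPKM at 4 months, so no difference could be shown for it (95% interval -1.57 to 1.71). The ratio of Cacna1c to Cacnb2 was 3.32, 3.50 and 4.57 at PND2 and 1.95, 2.21 and 2.11 at 4 months, and that of Cacna1c to Cacna2d1 1.11, 1.56 and 2.10 and 0.506, 0.555 and 0.577.

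Ratios within a library do not depend on how libraries are scaled. For 15 pairs of genes that form a channel together or stand in for one another, the log2 ratio of RPKM + 0.1 was compared between the ages with a 2-sided exact permutation test. In 12 of the 15 the ages did not overlap (exact permutation p = 0.1, adjusted p = 0.125 over the 15 pairs), and 3 against 3 libraries cannot give a lower p. Of all 5995 pairs that the 110 tested channel genes can form, which share genes, 61.0% did not overlap either. The 3 that overlapped were Kcnma1/Kcnmb1, Kcnj8/Abcc9 and Cacna1c/Cacnb3. Among the other 12, the change in the log2 ratio was 4.23 for Kcnq1 over Kcne1, -3.55 for Kcna5 over Kcnab1 and -2.80 for Kcnj2 over Kcnj3.

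**Figure D4:**
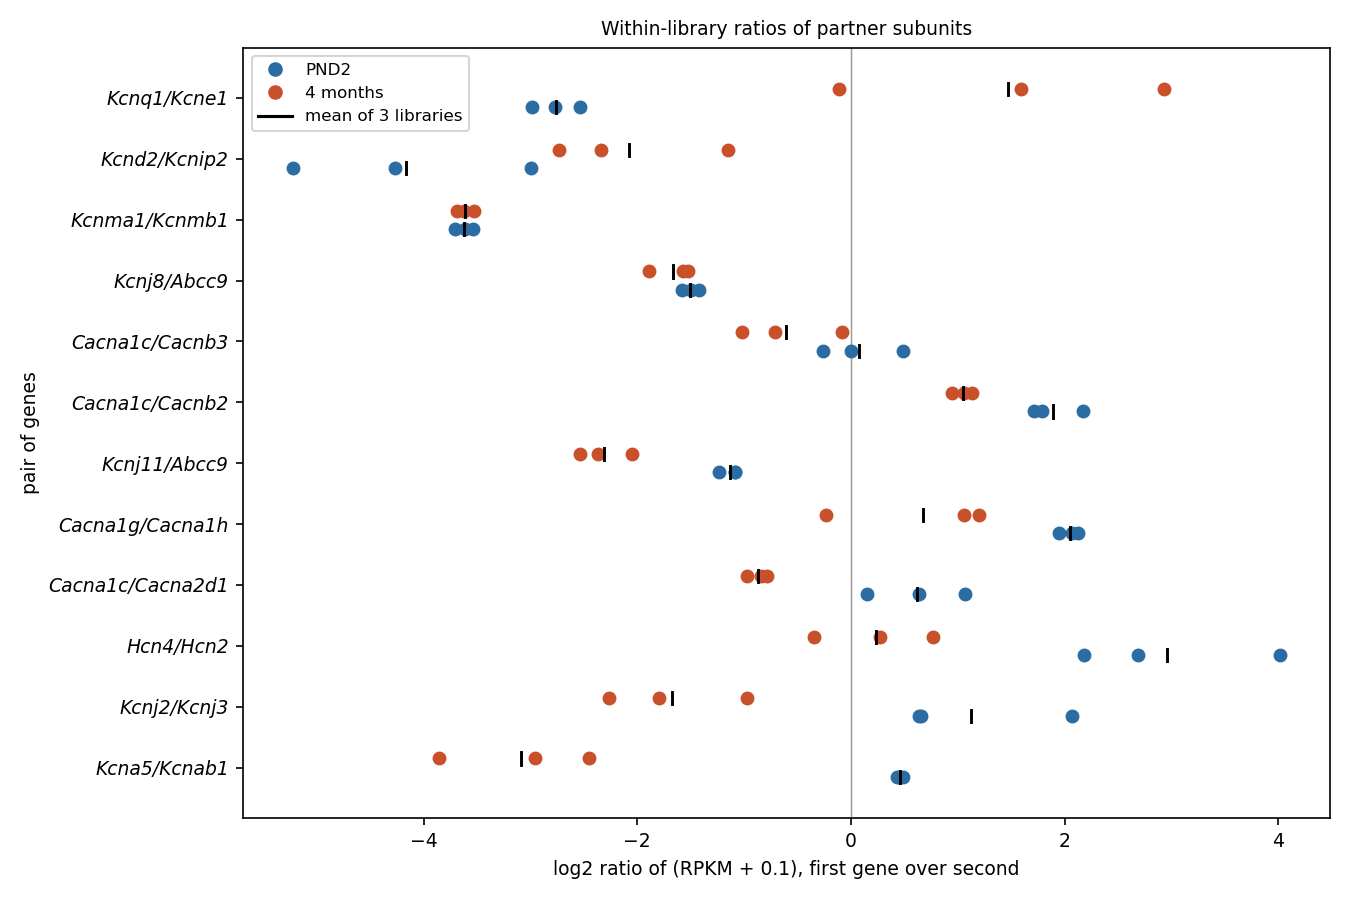
Within-library log2 ratios of 12 of the gene pairs. Each point is a library (blue, PND2; red, 4 months) and the black bar is the mean of 3, with the first named gene over the second, after 0.1 was added to each RPKM. Pairs are sorted by their change. Kcnma1/Kcnmb1 and Kcnj8/Abcc9 lie close together at both ages, while Kcna5/Kcnab1 moves from 0.46 ± 0.02 to -3.09 ± 0.71.

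Several of these genes are known from heart muscle and others from smooth muscle, and their values are set here beside the markers of those cells. The cardiomyocyte sum was lower at 4 months. Of the genes listed beside it, Kcne1, Kcnq1, Kcna5, Kcna4, Kcng2, Hcn4, Cacna1g, Cacna1c and Cacng6 were called lower too. Kcnj3, Kcnd3, Kcnd2 and Scn4b were called higher, and the others were not called. Among the 4 months libraries the cardiomyocyte sum was highest in the second, and so were Kcne1, Kcnq1, Kcna5, Kcna4, Kcng2, Hcn4, Cacna1g, Cacna1c, Kcnj11, Kcnj2, Kcnj5, Cacnb2 and Cacng6. Other genes known from the heart were not: Kcnj3, Kcnd3, Kcnh2, Cacna1h and Cacna1d were highest in the first 4 months library, and Kcnd2, Kcnip2 and Scn4b in the third. At PND2 the cardiomyocyte sum was highest in the third library, where Kcne1, Kcnq1, Cacna1c, Kcnj11, Kcnj2, Cacng6, Kcnip2 and Scn4b were highest too. Kcna5, Kcna4, Kcng2, Hcn4, Cacna1g, Kcnj5, Cacnb2, Kcnh2, Cacna1h and Cacna1d were highest in the second PND2 library, and Kcnj3, Kcnd3 and Kcnd2 in the first. The smooth muscle sum was highest in the first 4 months library, as were Kcnmb1, Kcnma1, Kcnab1, Scn7a, Kcne4 and Kcnj8, while Kcnk3, known from an artery, was highest in the second. At PND2 that sum was highest in the third library, as were Kcne4 and Kcnj8, while Kcnmb1, Kcnma1, Kcnab1 and Kcnk3 were highest in the second and Scn7a in the first. These are orders of 3 libraries that share their RNA source and were read after the values were seen. The part of either cell type in the channel values was not tested.

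**Figure D5:**
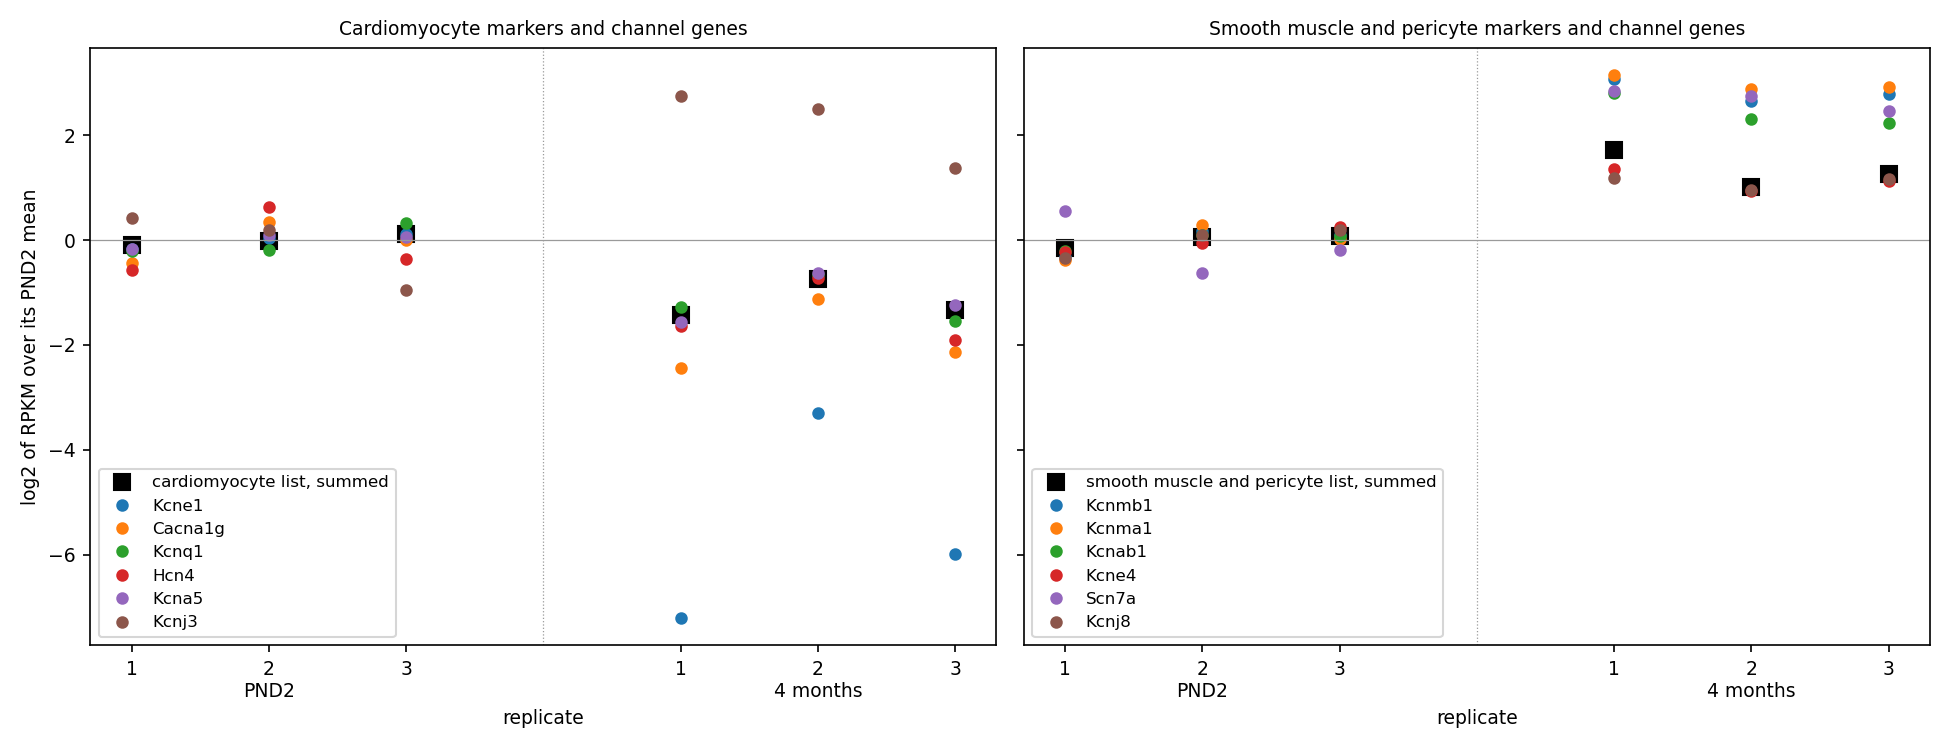
Channel genes beside marker sums. The vertical axis is the log2 of a gene's RPKM, or of a list's summed RPKM, over its mean at PND2, and the horizontal axis gives the 3 replicates of each age, which have no order. Black squares are the 14 cardiomyocyte markers on the left and the 12 smooth muscle and pericyte markers on the right. Kcne1 lies far under the cardiomyocyte squares at 4 months, Hcn4, Kcnq1 and Kcna5 lie near them, and Kcnj3 lies above. Kcnmb1, Kcnma1, Kcnab1 and Scn7a lie above the smooth muscle squares.

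Some of the genes lie close together on a chromosome. Taking neighbours up to 500000 bases apart, 55 of the 138 genes fell into 23 clusters, and 3 of these held 2 or more called genes. On chromosome 2, Scn3a fell and Scn2a1 rose, 53.1 kb apart on opposite strands. On chromosome 6, Kcna5 fell and Kcna1 rose, 105 kb apart on the same strand. On chromosome 3, Kcna2 and Kcnc4 both rose. Scn4b and Scn2b lie 8.37 kb apart on chromosome 9, and only Scn4b was called.

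The 28 genes under the filter had at most 0.210 RPKM in any library. Kcna10 had no read in any library, which allows up to 0.0581 RPKM at the least favourable depth, from 3 reads. Among the other 27 were the retinal L-type pore Cacna1f, the third T-type pore Cacna1i and the sensory neuron channels Scn9a and Scn11a. These genes were not tested.

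A list of 30 genes whose proteins bind or modify these channels was read beside them. Their median log2 fold change was 0.30. At 4 months 9 of the 26 tested were higher and 5 lower, where 14.7% of all tested genes were higher and 21.1% lower. Nalcn, the sodium leak channel, rose from 1.45, 0.714 and 0.937 to 7.35, 5.96 and 5.20 RPKM (2.50 ± 0.29, adjusted p = 0.000813). Fgf14, which binds the tail of sodium channel pores, rose from 3.18 ± 0.606 to 10.5 ± 1.83 RPKM (1.69 ± 0.20), and Gem, a small GTPase that inhibits L-type channels, from 25.3 ± 0.585 to 77.5 ± 10.7 RPKM (1.60 ± 0.11). Cav3, the muscle caveolin, fell from 120.0 ± 5.72 to 41.4 ± 5.57 RPKM (-1.54 ± 0.11), Ank3, which anchors sodium channels, from 5.37 ± 0.299 to 1.85 ± 0.577 RPKM (-1.53 ± 0.24), and Nedd4l, a ubiquitin ligase of sodium and potassium channels, from 9.31 ± 0.798 to 4.21 ± 0.472 RPKM (-1.13 ± 0.15).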

How the data were processed

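Aortic valves of PND2 and 4 months mice were compared, 3 libraries each, as GEO's labels group them. Per the labels and the study's methods, the authors prepared stranded TruSeq libraries from pooled valves, aligned trimmed reads by TopHat2 2.1.0 (genome mm10) and counted genes and exons of an Ensembl annotation with easyRNASeq; the processing notes also name R 3.2.2. Whether counts were made by strand is not given in the sources used here. The authors deposited RPKM values, per gene and per exon.

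Multiplied by exonic length and library total, 100% of the gene RPKM values came out as whole reads (tolerance 0.01 reads). They served as depth, and limits from them cover counting error only. Fold changes, standard errors and p-values are those of limma 3.58.1 (R 4.3.3; eBayes with a mean-variance trend, 2-sided), fitted to log2(RPKM + 0.1), with Benjamini-Hochberg adjustment over the 25903 genes with at least 0.1 RPKM in 3 libraries. Such fold changes understate the change of low genes. On simulated data limma found 87 of 100 genes planted at a log2 change of 1.5 and 99 of 100 at 3, with 10 false calls among 25903. The planted genes were drawn only from those of higher mean level, and the noise had the spread that limma had fitted. These rates therefore do not cover genes of low level. Exon pairs lay up to 3000 bases apart and differed by at most 3 bases in length; the restriction to pairs in no common transcript was added after the data were seen. Sequences are from the mm10 genome with GENCODE M21. Python 3.11.15, pandas 2.3.3 and matplotlib 3.10.9 made the tables and plots.

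The genes and lists were chosen with earlier results of these data known. Genes are named when they were called with a fold over 2 and a mean of at least 1 RPKM at the higher age (up to 6 per family), when their mean was at least 5 RPKM, or when they belong to a compared pair; other names were chosen after their values were seen. Values of some member genes are not reported here. Alternatives covered the pseudocount, filter, trend, scaling, a replicate block, a floor at 10 reads, voom on recovered reads, protein-coding genes alone, the study's per-gene test, and each library left out.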

Additional observations from a re-analysis of the deposited data

Results flagged for a closer look

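Antisense genes named after channel genes were left out by the rule on biotype, and 4 of 5 had more than 3 reads in every library. Their mean RPKM over the 6 libraries was 6.62 for Kcnmb4os1, 2.00 for Kcnmb4os2, 0.456 for Kcnab3os and 0.360 for Kcnq1ot1. By limma Kcnmb4os1 was lower at 4 months, with 9.17 ± 3.15 RPKM at PND2 and 4.06 ± 1.30 RPKM at 4 months (SD, n = 3; log2 fold change -1.15, adjusted p = 0.0226), and so was Kcnmb4os2, with 3.07 ± 1.66 and 0.930 ± 0.206 RPKM (-1.52, adjusted p = 0.0197). Both overlap exons of Kcnmb4 on the opposite strand, over 43.1% and 34.2% of their own length, and Kcnmb4 fell as well. Kcnab3os and Kcnq1ot1 were not called. The remaining one, Kcnd3os, was higher at 4 months (adjusted p = 0.00717), with 0 reads in each PND2 library and 16, 6 and 14 reads at 4 months. It overlaps an exon of Kcnd3, which rose as well, on the opposite strand over 12.2% of its own length and 1.72% of that of Kcnd3. Groups of 3 libraries were not searched for outlying samples.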

How the results depend on the processing

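No named gene called by limma changed sign under any alternative, and of 42 such genes 33 kept their call in all of them other than the per-gene test. Under the per-gene test 27 of the 42 lost their call, and 15 kept it in every alternative. Those lost included Kcne1 (per-gene test, adjusted p = 0.116), Kcna5 (0.124), Kcnq1 (0.0968), Cacna1g (0.0913), Scn7a (0.0583) and Kcnc4 (0.0555). That test called 15 genes higher and 4 lower, or 14 and 3 with a fold over 2. Adding 1 RPKM in place of 0.1 left the calls at 33 and 17 but shrank the folds of low genes, so that 18 higher and 7 lower exceeded a fold of 2. With 1 library left out in turn, the number higher was 27 to 32 and the number lower 14 to 18, and with a fold over 2 it was 24 to 30 and 10 to 16. With a filter of 1 RPKM in 3 libraries, which leaves 65 of the genes, 24 were higher and 15 lower, and the remaining alternatives gave 30 to 38 higher and 16 to 24 lower. Replicate numbers did not pair the libraries, since the deviations of same-numbered libraries correlated at 0.044, -0.061 and -0.160; with a replicate block 30 genes were higher and 20 lower, 47 of them called without the block too, and Kcnj5 (-0.80, adjusted p = 0.0114) was among those called with it alone. Only genes that were not called changed sign: Cacnb2 with median scaling (0.092) and quantile normalization (0.0092), and Cacna2d2, Cacnb2, Kcnip2, Kcnj11 and Kcnj15 without single libraries, with values of -0.72 to 0.76, -0.11 to 0.041, -0.56 to 0.55, -0.096 to 0.20 and -0.15 to 0.35 in that order. The cause of these differences was not tested. Depth limits the Cacna1c exon pair shown, with 0 to 31 reads an exon, and the genes with under 10 reads in a PND2 library, such as Scn4b and Kcna1.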
